A study of Homo sapiens with 11 samples.

Results

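TNFAIP8 and 9 further genes of TNF signalling and cell survival were followed in RNA sequencing data from human tumour xenografts. They were picked by symbol from a table of 28152 gene symbols, as 2 TNF receptors (TNFRSF1A, TNFRSF1B), 2 TNF receptor-associated factors (TRAF1, TRAF2), 2 inhibitor of apoptosis genes (BIRC2, BIRC3), the caspase-8 inhibitor CFLAR, and 3 genes named for their induction by TNF (TNFAIP8, TNFAIP2, TNFAIP6). All 10 were in the table and all 10 passed the filter on low counts that left 16653 genes to test. The 10 were proposed with the difference between treated and vehicle tumours already known, so that difference is described for them without a test.

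All tumours were grown from cells labelled BT-474, described in the labels as a HR+/Her2+ breast cancer line, in the mammary fat pad of female Athymic Nude mice. These animals lack mature T cells but keep other host cells such as macrophages, and all of them, controls included, carried an estradiol pellet (0.72 mg, 90 days). Tumours entered the study above 95 mm3. One group of 6 received vehicle, mannitol in water, and the other group of 5 received evexomostat (SDX-7320) at 12 mpk, each by subcutaneous injection every 4 days, and the labels give day 33 for every sample. Evexomostat inhibits methionine aminopeptidase 2, an enzyme that removes the first methionine from new proteins. Each library came from 1 tumour, and the comparison asks which transcripts differ between treated and vehicle tumours.

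TNF binds its receptors at the cell surface and starts signals that can either keep a cell alive or kill it. When the receptor recruits TRAF2 and the IAP proteins cIAP1 and cIAP2 (encoded by BIRC2 and BIRC3), ubiquitin chains built on the complex switch on the transcription factor NF-kB, which in turn induces survival genes, among them BIRC3, TRAF1 and CFLAR. When this arm fails, FADD and caspase-8 form a second complex that leads to apoptosis, and cFLIP, the product of CFLAR, holds caspase-8 in check.

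Levels are given in CPM, counts scaled to a common library size with the TMM correction for composition. Library totals ranged from 22808033 to 39249329 counts, and a gene at 0 could have had up to 3 counts, or 0.0764 to 0.132 CPM before the composition correction (counting error only). In vehicle replicate 001 the 100 most abundant genes took up 23.9% of the library, where they took up 16.2% to 17.9% elsewhere, so results are also given without it. Markers of the labelled cell type were uneven, and several were nearly absent. Of the luminal keratins, KRT8 was abundant at 167 to 562 CPM under vehicle and 254 to 353 under evexomostat. KRT18 was at 100.4 to 185 and 141 to 193 CPM, but KRT19 had only 0 to 46 counts per library. EPCAM was at 0.331 to 5.28 CPM under vehicle and 2.80 to 4.62 under evexomostat, and GATA3 at 2.94 to 9.50 and 4.87 to 10.2. CDH1 and FOXA1 reached no more than 1.34 and 1.91 CPM in any tumour, and GRB7 had 3 to 18 counts per library. The hormone receptor genes were nearly absent from the counts, since ESR1 had 1 to 17 counts per library and PGR 0 to 5. These counts go against the HR+ label. ERBB2 lay between 26.7 and 66.5 CPM, below TRAF2 in every tumour (70.7 CPM or more), a level that does not by itself bear out the Her2+ label. All 11 label markers, 9 of them tested, summed to 344 to 791 CPM under vehicle and 476 to 601 under evexomostat, most of it from KRT8 and KRT18. The sum therefore does not show the level of the other markers, and only the labels tie these tumours to BT-474. The labels do not say whether the tumours came from separate batches of animals. The spread given is that between tumours. In such bulk tissue, fewer cells of a type and less RNA per cell cannot be told apart.

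The promoter of BIRC3 is shown because BIRC3 is a textbook NF-kB target whose groups did not overlap and that of CFLAR because it was the other gene with a match to the NF-kB consensus. Each sequence is the 250 bases upstream of an annotated start, read on the sense strand, from RefSeq on GRCh38.p14, with capitals marking matches to the 10-base NF-kB consensus on either strand.
BIRC3 (chr11:102317234-102317483, plus strand): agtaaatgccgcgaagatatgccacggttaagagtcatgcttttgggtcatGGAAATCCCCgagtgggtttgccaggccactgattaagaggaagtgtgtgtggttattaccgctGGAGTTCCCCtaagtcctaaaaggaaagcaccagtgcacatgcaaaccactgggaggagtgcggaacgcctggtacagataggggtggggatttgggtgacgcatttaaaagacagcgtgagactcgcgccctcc
CFLAR (chr2:201118466-201118715, plus strand): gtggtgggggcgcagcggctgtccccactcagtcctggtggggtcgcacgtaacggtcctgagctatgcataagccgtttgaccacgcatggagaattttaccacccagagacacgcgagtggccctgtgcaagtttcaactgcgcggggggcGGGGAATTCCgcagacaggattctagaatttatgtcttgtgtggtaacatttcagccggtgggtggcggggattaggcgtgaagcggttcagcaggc
The table held 18 such windows for the 10 genes, since several genes have more than 1 annotated start. BIRC3 had 2 matches, both on the minus strand, beginning 199 and 135 bases upstream of the start. CFLAR had 1 match on the plus strand, 97 bases upstream of 1 of its 4 starts. No match lay in the other 16 windows, including all 3 of TNFAIP8. In all, 2 of 18 windows (11.1%) held a match, against 9.96% of all 35114 windows. With 18 windows, several from the same gene, this cannot show whether the frequency near these genes differs from that elsewhere. A match is a description of the letters and does not show binding. These coordinates apply to the sequences only, since the counts were made on an older build.

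In the data as a whole, the 10 genes were mostly lower in treated tumours. Of the 10, 9 had a log2 fold change below 0, and the median of the 10 was -0.48, against -0.04 over all tested genes, of which 55.4% were below 0. Past an adjusted p-value of 0.05 in edgeR's quasi-likelihood test were 2 of the 10, TNFAIP8 and BIRC3, both lower, against 0.606% of tested genes (101 of 16653; 0.432% lower and 0.174% higher). The groups did not overlap in 3 of the 10, TNFAIP8, BIRC3 and TNFAIP6, all lower, against 2.97% of tested genes (1.64% lower and 1.33% higher). Because this contrast was known when the genes were chosen, nothing is read from these shares. Without vehicle replicate 001, 3 of the 10 were past the threshold, with TNFAIP6 as the third, while calls over all genes went from 101 to 865 (5.22% of genes tested there). Without evexomostat replicate 002, 005 or 007, none was. In those comparisons edgeR called 2, 1 and 3 of all genes, with an unadjusted p under 0.05 in 1884, 1833 and 1649. BIRC3 alone dropped out without vehicle replicate 003, 004, 006 or 007 or evexomostat replicate 004. DESeq2 called 3 of the 10, adding TNFAIP6, against 3.92% of all genes it tested. Limma-voom with quality weights called 6, adding TNFAIP6, TNFRSF1B, CFLAR and TNFAIP2, against 6.36% of all genes.

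**Figure D1:**
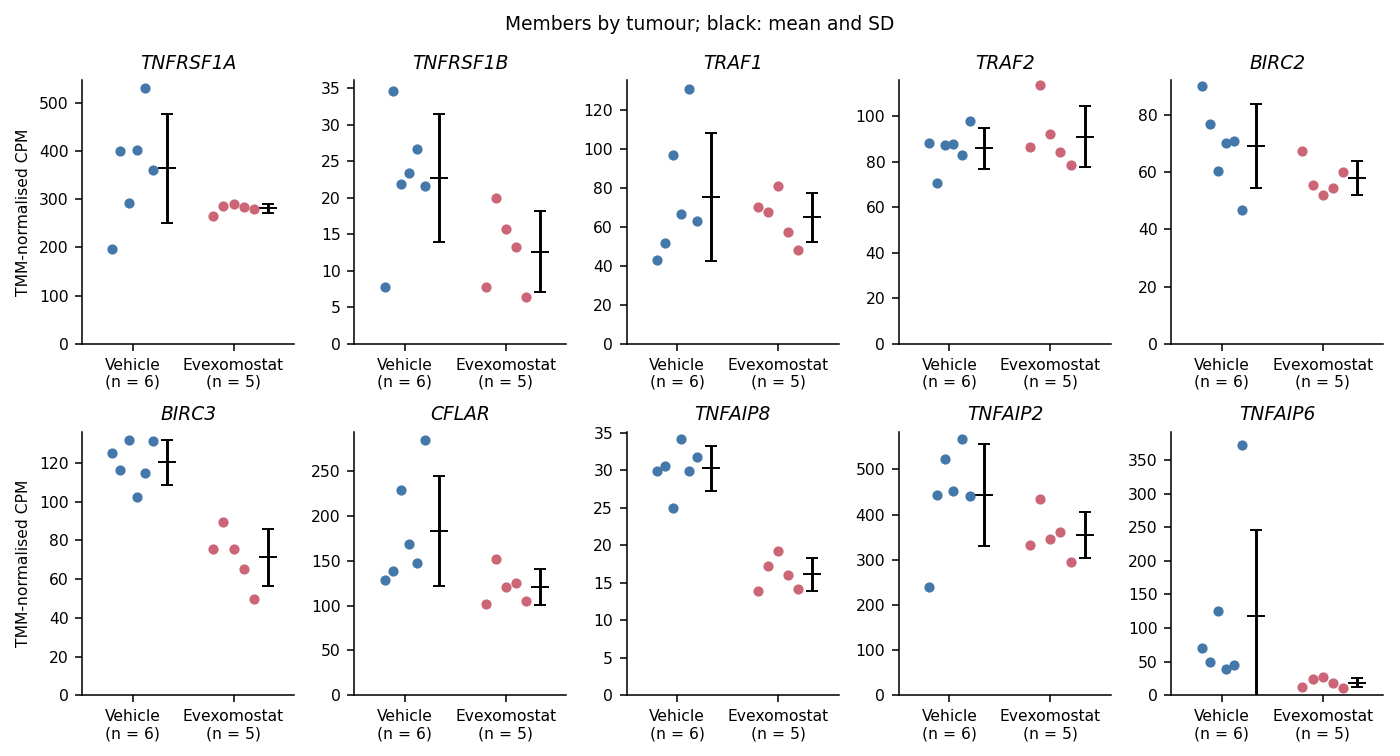
Level of each of the 10 genes in each tumour, in TMM-normalised CPM on axes that start at 0, with vehicle tumours in blue (n = 6) and evexomostat tumours in red (n = 5), in replicate order, and black marks for the mean and SD. The lower end of the vehicle SD bar of TNFAIP6 lies below 0 and is not drawn. The groups are apart in TNFAIP8, BIRC3 and TNFAIP6, and overlap in the other 7 genes.

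TNFRSF1A encodes TNFR1, the death domain receptor found on most cells. It was at 198, 292 and 400 CPM in vehicle replicates 001, 004 and 003, at 360 in 007, at 401 in 005 and at 529.6 in 006. The treated tumours lay close together, between 265 and 290.3 CPM, with a median of 285. The vehicle range thus enclosed all 5 treated tumours, with vehicle replicate 001 below them and the other 5 vehicle tumours above. The SD was 112 CPM around a mean of 363 under vehicle (SD, n = 6) and 9.77 around 281 under evexomostat (SD, n = 5). The log2 fold change was -0.37 (SE 0.20), and -0.49 without vehicle replicate 001, the lowest vehicle tumour.

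TNFRSF1B encodes TNFR2, which lacks a death domain and signals through TRAF2. Its vehicle levels were 7.81 CPM in replicate 001 and 21.6 to 34.7 in the other 5, with a median of 22.7 over all 6. Under evexomostat the values were 7.85, 19.9, 15.7, 13.3 and 6.47 CPM in replicates 002, 003, 004, 005 and 007. Each treated tumour was below the vehicle median, but vehicle replicate 001 was as low as the lowest treated tumours, so the groups overlapped. The log2 fold change was -0.85 (SE 0.35), and -1.02 without that library. Counts were fewest for this receptor, at 161 to 1345 per library.

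TRAF2 is the adaptor that brings the IAP proteins to TNFR1 and TNFR2, and it was nearly level. It lay between 70.7 and 97.9 CPM under vehicle (median 87.6) and between 78.4 and 114 under evexomostat (median 86.5). The ranges overlapped over most of their length, the log2 fold change was 0.09 (SE 0.13), and it changed sign when evexomostat replicate 003, the highest tumour, was left out (-0.007). TRAF1, a family member without the RING domain and itself induced by NF-kB, varied more between vehicle tumours. It was at 43.1, 64.6 and 131 CPM at the lowest, median and highest vehicle tumour, and at 70.4, 67.5, 81.0, 57.3 and 48.3 in the 5 treated tumours in replicate order. All 5 treated tumours lay inside the vehicle range, and only 2 of 5 were below the vehicle median. The log2 fold change of -0.22 (SE 0.26) rested on vehicle replicate 006, the highest, since it was 0.01 without that tumour and -0.33 without vehicle replicate 001, the lowest.

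BIRC2 encodes cIAP1, a ubiquitin ligase of the TNF receptor complex. It was at 46.7, 70.5 and 89.9 CPM at the lowest, median and highest vehicle tumour and between 52.0 and 67.4 CPM under evexomostat. All 5 treated tumours lay within the vehicle range and below its median, and the log2 fold change was -0.26 (SE 0.16), or -0.16 without vehicle replicate 001, which was highest.

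BIRC3 encodes cIAP2, the paralog of cIAP1 and its neighbour in the genome. It was at 125, 116, 132, 102, 115 and 131 CPM in vehicle replicates 001, 003, 004, 005, 006 and 007. Under evexomostat it was at 75.3, 89.7, 75.7, 65.4 and 49.9 CPM in replicates 002, 003, 004, 005 and 007. Every treated tumour was below every vehicle tumour, with a gap from 89.7 to 102 CPM. The means were 120.2 ± 11.4 (SD, n = 6) and 71.2 ± 14.7 CPM (SD, n = 5), and treated tumours were at 59.2% of the vehicle level by the fitted log2 fold change of -0.76 (SE 0.15). Vehicle tumours differed little from one another in this gene: the SD of log2 CPM was 0.14, and 4.51% of tested genes had a smaller one. Treated tumours differed more, with an SD of log2 CPM of 0.32, where the median tested gene had 0.23 in that group.

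The 2 IAP genes were also set against each other within each tumour. Per kilobase of transcript, the ratio of BIRC3 to BIRC2 was 1.07 to 2.16 in vehicle tumours (median 1.20) and 0.639 to 1.24 in treated tumours (median 0.919). The ranges of the ratio overlapped, with vehicle replicates 004 (1.68) and 007 (2.16) highest and evexomostat replicate 007 (0.639) lowest. The size of the ratio depends on the lengths used, here median transcripts of 4342 bases for BIRC3 and 3331 for BIRC2. Their annotated exons sum to 6911 and 4248 bases, so which gene was higher is not settled. A read from a stretch that the paralogs share could have been counted for either gene.

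CFLAR, the gene of cFLIP, was at 129, 138, 147, 169, 229 and 284 CPM in vehicle replicates 001, 003, 006, 005, 004 and 007. The treated tumours were at 101, 151, 121, 125 and 105 CPM in replicates 002, 003, 004, 005 and 007. Of the 5 treated tumours, 4 were below every vehicle tumour, and evexomostat replicate 003 was above 3 of the 6. The log2 fold change was -0.60 (SE 0.21), moving to -0.43 without vehicle replicate 007 and to -0.68 without vehicle replicate 001. CASP8, which encodes the protease that cFLIP restrains, differed by -0.45 on the log2 scale with an SE of 0.22 (edgeR adjusted p 0.401). Per kilobase of transcript, CFLAR stood at 2.15 to 2.89 times CASP8 under vehicle and at 1.97 to 2.53 times under evexomostat, ranges that overlapped. The size of this ratio rests on a median CFLAR transcript of 1646 bases, where its annotated exons sum to 20637 bases. It therefore cannot show which of the 2 genes had more transcripts. CFLAR has 12 annotated protein-coding transcripts, and counts per gene do not separate the long and short forms of cFLIP. In GENCODE 29, 9.83% of its exon bases are shared with other genes, among them the antisense gene CFLAR-AS1, and reads there cannot be told apart unless strand was used.

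TNFAIP8 encodes a small protein, induced by TNF through NF-kB, that has been described as an inhibitor of apoptosis and a lipid-binding protein. It was at 30.0, 30.6, 25.0, 34.1, 29.9 and 31.8 CPM in vehicle replicates 001, 003, 004, 005, 006 and 007. The treated tumours were at 13.9, 17.3, 19.2, 16.1 and 14.2 CPM in replicates 002, 003, 004, 005 and 007. The highest treated tumour, at 19.2, was below the lowest vehicle tumour, at 25.0. Vehicle replicate 001, which stood apart in other genes, was at the middle of the vehicle group here. Raw counts were modest, from 427 to 1268 per library. The means were 30.2 ± 3.03 (SD, n = 6) and 16.1 ± 2.20 CPM (SD, n = 5), so treated tumours were at 53.4% of the vehicle level, with a log2 fold change of -0.91 (SE 0.13). Left out 1 at a time, the 11 libraries gave log2 fold changes from -0.98 to -0.86, the narrowest range of the 10 genes. Of all tested genes, 3.31% had a more negative log2 fold change. TNFAIP8 was picked with this contrast known, so its small SE and narrow range describe the gene and add no support. Its vehicle SD of log2 CPM, 0.15, was larger than in only 5.53% of tested genes, where the median gene had 0.42.

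TNFAIP2, a TNF-induced gene whose product acts in membrane protrusion and exocytosis, had the highest CPM of the 10. It was at 239, 447 and 567 CPM at the lowest, median and highest vehicle tumour and between 296 and 435 under evexomostat. All 5 treated tumours were below the vehicle median, yet vehicle replicate 001 was below all of them, so the groups overlapped. The log2 fold change was -0.32 (SE 0.20), and -0.45 without that library.

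TNFAIP6 encodes TSG-6, a secreted protein that binds hyaluronan and is made by stromal and other cells during inflammation. It had the largest difference of the 10 and the widest spread. The vehicle tumours were at 71.1, 49.1, 126, 39.7, 45.7 and 373 CPM in replicates 001, 003, 004, 005, 006 and 007. The treated tumours were at 12.4, 24.1, 26.9, 18.7 and 11.3 CPM. No treated tumour reached the lowest vehicle tumour, and vehicle replicate 007 stood far above the next highest. The means were 117 ± 129 (SD, n = 6) and 18.7 ± 6.89 CPM (SD, n = 5), and the log2 fold change was -2.65 (SE 0.59), a level 6.29-fold lower. Without vehicle replicate 007 it was -1.83, and without vehicle replicate 001 it was -2.76.

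**Figure D2:**
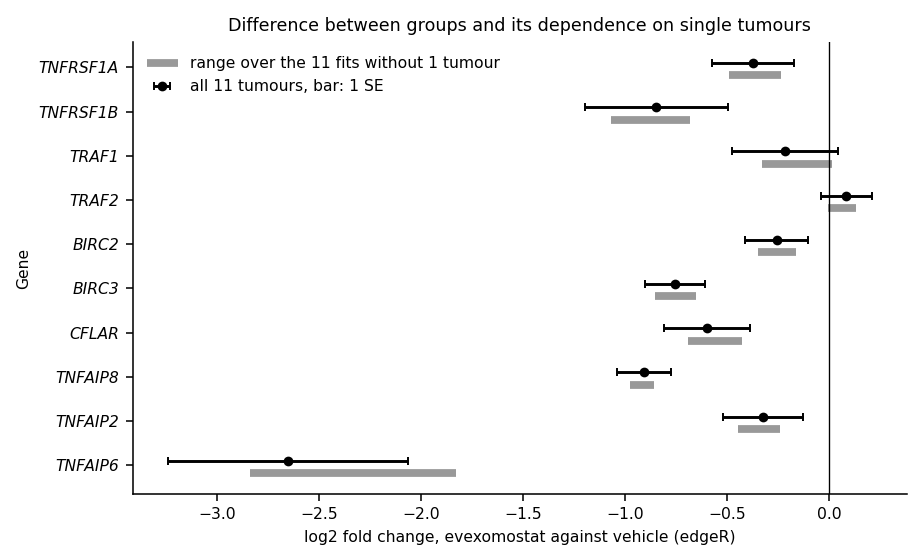
Log2 fold change of each of the 10 genes, evexomostat against vehicle, from edgeR (black points, bars of 1 SE), with the range over the 11 fits that each left out 1 tumour (grey). The range is widest for TNFAIP6 (-2.84 to -1.83) and narrow for TNFAIP8 (-0.98 to -0.86), and those of TRAF1 and TRAF2 reach past 0.

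The vehicle tumours did not share 1 order over the 10 genes. Vehicle replicate 007 was highest in CFLAR, TNFAIP6 and TRAF2 and lowest in BIRC2. Vehicle replicate 006 was highest in TNFRSF1A, TNFAIP2 and TRAF1. Vehicle replicate 001 was lowest in TNFRSF1A, TNFRSF1B, TRAF1, CFLAR and TNFAIP2, and highest in BIRC2. Among treated tumours, evexomostat replicate 007 was lowest in 6 genes (TNFRSF1B, TRAF1, TRAF2, BIRC3, TNFAIP2, TNFAIP6) and replicate 002 in 3 (TNFRSF1A, CFLAR, TNFAIP8). The spread of log2 CPM was larger under vehicle in 7 of the 10 genes, and it was larger under vehicle in 81.2% of all tested genes, so this was a property of the groups at large. TNFAIP8, BIRC3 and TRAF2 were the exceptions.

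**Figure D3:**
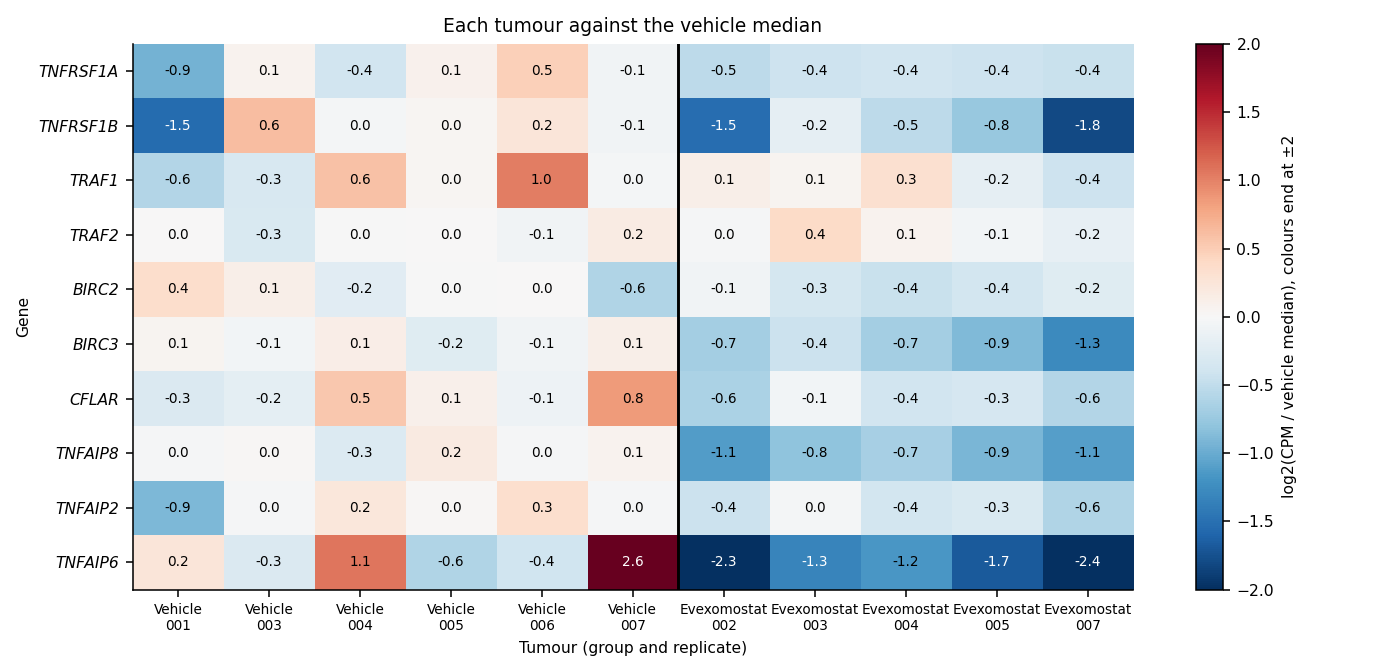
Log2 ratio of each tumour's CPM to the median of the 6 vehicle tumours, for the 10 genes (rows) in the 11 tumours (columns, with a line between the groups); colours end at 2 in either direction. TNFAIP8 and BIRC3 are below the vehicle median in every treated tumour and near it in every vehicle tumour, whereas TNFAIP6 ranges from far above the median in vehicle replicate 007 to far below it in treated tumours.

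To see whether tumours with more TNFAIP8 also had more of the other genes, the mean of each group was subtracted from log2 CPM, and TNFAIP8 was related to each of the other 9 genes and to the mean of 24 TNF-induced NF-kB target genes across the 11 tumours. None of the 10 relations was past an adjusted p-value of 0.05 by exact permutation within groups, and none had an unadjusted p under 0.05. The largest Pearson correlation was with TNFRSF1B, r = 0.46 (exact permutation p 0.172, adjusted 0.922), with Spearman's rho of 0.55 (exact permutation p 0.114, adjusted 0.569). The r with TNFRSF1B was 0.56 without vehicle replicate 004 and evexomostat replicate 004, the tumours farthest from the median of TNFAIP8, and 0.64 without vehicle replicate 001. On log2(RPM + 1), without the composition correction, r was 0.72 with TNFRSF1B and 0.56 with TNFRSF1A. Spearman's rho was largest with TNFRSF1A, at 0.555 (exact permutation p 0.0552, adjusted 0.552), where r was 0.26 (exact permutation p 0.411, adjusted 0.922). With the NF-kB targets r was 0.36 (exact permutation p 0.323, adjusted 0.922) and rho 0.37 (exact permutation p 0.294, adjusted 0.752). This r rested on single tumours, at 0.77 without vehicle replicate 004, 0.065 without evexomostat replicate 004 and 0.59 without both. The correlation with BIRC3 was 0.17 (exact permutation p 0.697, adjusted 0.922; rho 0.08, exact permutation p 0.834, adjusted 0.884), 0.30 without those 2 tumours and -0.21 without evexomostat replicate 007. With 11 tumours and little spread of TNFAIP8 inside a group, only strong relations could have been seen.

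Over 13067 genes with a mean log2 CPM of at least 1, the 5 whose group-centred levels followed TNFAIP8 most closely were LOC105371592, CLDN23, KLHDC8B, SLC43A2 and ADORA1, with Pearson correlations from 0.82 to 0.85 over 11 tumours that share their libraries. These are the top of a ranking of many genes and are given as a description. Between groups they went different ways, with log2 fold changes from -1.18 for SLC43A2 to 0.28 for LOC105371592.

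Levels of the 10 genes were compared per kilobase, using the median length of each gene's protein-coding transcripts in GENCODE 29. In vehicle tumours the order by median CPM per kilobase was TNFRSF1A (248.8), TNFAIP2 (101), CFLAR (95.9), TNFAIP6 (42.2), TRAF2 (38.7), BIRC3 (27.8), BIRC2 (21.2), TNFAIP8 (17.95), TRAF1 (15.0) and TNFRSF1B (10.7). Neighbours in that order were apart in 2 places, between TNFRSF1A and TNFAIP2 and between TRAF2 and BIRC3, and the ranges of all other neighbours overlapped. The first gap was narrow, from 128 to 129 CPM per kilobase. Without the composition correction (RPM), TNFRSF1A and TNFAIP2 overlapped under vehicle. In treated tumours the order was TNFRSF1A (186), TNFAIP2 (78.3), CFLAR (73.6), TRAF2 (38.2), BIRC3 (17.3), BIRC2 (16.7), TRAF1 (15.7), TNFAIP6 (13.2), TNFAIP8 (9.54) and TNFRSF1B (6.29). There TNFRSF1A was apart from TNFAIP2, CFLAR from TRAF2 and TRAF2 from BIRC3, and the other neighbours overlapped. TNFRSF1A was thus 23.5 times TNFRSF1B per kilobase at the vehicle median of the ratio (range 16.0 to 35.1) and 29.6 times at the treated median (range 19.9 to 60.0), with overlapping ranges. Transcript choice matters most for CFLAR and TNFAIP8, whose annotated exons sum to 20637 and 9473 bases against median transcripts of 1646 and 1687.5 bases. With all exons as the length, CFLAR was 8th and TNFAIP8 10th in both groups, and TNFRSF1A and TNFAIP2 overlapped in both. On that length the medians of BIRC3 and BIRC2 were 17.4 and 16.6 under vehicle and 10.9 and 13.1 under evexomostat.

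The surrounding pathway was counted over 7 lists, which together held 118 genes that are not among the 10, of which 100 were tested. Of these 100, 6 fell and 0 rose at an adjusted p-value of 0.05 in edgeR (0.432% and 0.174% of all tested genes), 32 had an unadjusted p under 0.05 (13.4% of all tested genes did), and the median log2 fold change was -0.21. All 6 were TNF-induced NF-kB targets. The groups did not overlap in 14 of the 100, against 2.97% of all tested genes. For every list below, the shares over all genes tested were 0.606% past the threshold in edgeR and 3.92% in DESeq2. They were 13.4% at an unadjusted p under 0.05 in edgeR and 2.97% without overlap.

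Ligands of the TNF superfamily were tested in 10 of 18 cases, with 0 past the threshold in edgeR, 2 at an unadjusted p under 0.05, 0 in DESeq2 and a median log2 fold change of -0.27. CD70 and TNFSF9, the most abundant, which act as costimulatory ligands, had log2 fold changes of -0.25 (SE 0.23) and -0.43 (SE 0.20). TNF itself was listed at 0 counts in all 11 libraries, as was LTB, and LTA had 0 to 6. DDX39B and ABCF1, genes that all cells use and that lie in the same region of the genome, were also listed at 0, and BAG6, likewise in common use, had 1 to 6 counts. The level of TNF therefore cannot be read from this table. These genes beside TNF were looked up after its values were seen.

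Among 27 other receptors of the family, 21 were tested and 0 were past the threshold in edgeR, with 4 at an unadjusted p under 0.05, 0 in DESeq2 and a median of -0.20. LTBR, the lymphotoxin beta receptor, had a log2 fold change of -0.43 (SE 0.24), and TNFRSF12A, the receptor of TWEAK, one of 0.29 (SE 0.13). Of 24 genes of the signalling complexes, 23 were tested, 0 passed in edgeR, 4 had an unadjusted p under 0.05, 0 passed in DESeq2 and the median was -0.11. The most abundant were SHARPIN and RBCK1, subunits of the ligase that builds linear ubiquitin chains, at 0.29 (SE 0.12) and 0.12 (SE 0.17).

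Of the genes that restrain the pathway, all 12 were tested, 10 were below 0 with a median of -0.20, and 0 passed in edgeR, while 4 had an unadjusted p under 0.05 and 3 passed in DESeq2. TNIP1, an A20-binding protein, was at 357 ± 64.7 CPM (SD, n = 6) and 233 ± 28.2 (SD, n = 5), a difference of -0.61 on the log2 scale with an SE of 0.15 (edgeR adjusted p 0.0953). TNFAIP3, which encodes the ubiquitin-editing enzyme A20, was at 176 to 603 CPM under vehicle and 141 to 205 under evexomostat (edgeR adjusted p 0.0631, -1.14 on the log2 scale with an SE of 0.25). CYLD and TANK did not overlap between groups, at 63.7 to 84.4 against 48.6 to 54.5 CPM for CYLD and 52.0 to 85.4 against 41.8 to 51.7 for TANK; the pair was named after its values were seen.

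The other IAP genes and their antagonists gave 0 calls in edgeR among 8 tested of 9, with 1 at an unadjusted p under 0.05, 0 in DESeq2 and a median of -0.08. XAF1, an antagonist of XIAP, had a log2 fold change of -0.13 (SE 0.30), and XIAP, a direct caspase inhibitor, one of -0.33 (SE 0.20). Of the 3 TNFAIP8 paralogs, all tested, 0 passed in edgeR, 2 had an unadjusted p under 0.05 and 1 passed in DESeq2. TNFAIP8L1 was at 22.3 to 41.3 CPM under vehicle and 23.1 to 28.1 under evexomostat (edgeR adjusted p 0.354, -0.33 on the log2 scale with an SE of 0.15). TNFAIP8L3, whose product binds phosphoinositides, did not overlap, at 12.4 to 24.4 against 4.81 to 12.3 CPM (edgeR adjusted p 0.0992, -1.06 on the log2 scale with an SE of 0.27).

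TNF-induced NF-kB targets had the lowest median of the 7 lists. Of 26 genes, 24 were tested, 22 of them were below 0 with a median of -0.85, and 6 fell: PTGS2, CCL20, BCL2A1, ICAM1, SOD2 and RELB. Part of this list had been seen to be lower in these same tumours before it was written, so its direction is not independent evidence. DESeq2 called 14 of the 24, against 3.92% of all genes. The groups did not overlap in 11, all lower, against 1.64% of all genes. PTGS2, the inducible cyclooxygenase, was 13.6 to 129 CPM under vehicle and 2.95 to 7.10 under evexomostat (edgeR adjusted p 0.0138, -3.56 on the log2 scale with an SE of 0.47). CCL20, a chemokine, went from 145.3 ± 96.5 (SD, n = 6) to 20.9 ± 9.59 CPM (SD, n = 5), a difference of -2.80 on the log2 scale with an SE of 0.48 (edgeR adjusted p 0.0247). BCL2A1, a survival gene of the BCL2 family, differed by -1.87 on the log2 scale with an SE of 0.37 (edgeR adjusted p 0.0462) but no more than 29 counts in any library. ICAM1, an adhesion molecule, went from 213 ± 56.2 (SD, n = 6) to 89.3 ± 10.6 CPM (SD, n = 5), a difference of -1.25 on the log2 scale with an SE of 0.20 (edgeR adjusted p 0.0189). The number of pathway genes past the threshold moved with that of all genes: it was 19 among 865 without vehicle replicate 001, and 0 among 2, 1 and 3 without evexomostat replicate 002, 005 or 007.

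**Figure D4:**
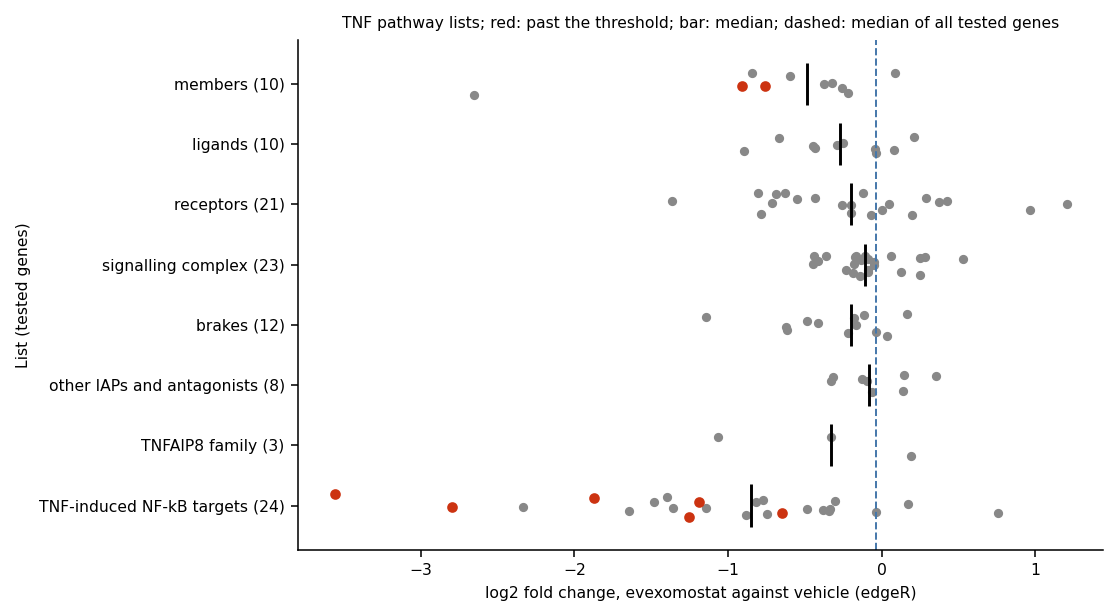
Log2 fold change (evexomostat against vehicle, edgeR) of each tested gene in the 10 members and the 7 pathway lists, with red points for genes past an adjusted p-value of 0.05, a black bar at each list's median and a dashed line at the median of all tested genes (-0.04). The targets of NF-kB reach furthest to the left and hold 6 of the 8 red points, and the other 2 are TNFAIP8 and BIRC3.

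Several of these genes, TNFAIP6 and TNFRSF1B among them, can also be made by stromal cells and leukocytes, so human symbols of genes that mark such cells were summed. Leukocyte markers were tested in 10 of 14 cases, 0 passed in edgeR with 1 at an unadjusted p under 0.05 and 0 in DESeq2, and CD3E was at 0 in every library. Their summed level was 141 to 277 CPM under vehicle and 107 to 196 under evexomostat, with overlap. Fibroblast markers (8 of 8 tested, 0 past the threshold in edgeR, 0 at an unadjusted p under 0.05, 0 in DESeq2) summed to 400.2 to 2062 CPM under vehicle and 497 to 1071 under evexomostat, highest in vehicle replicate 004. Endothelial markers (5 of 8 tested) summed to 18.3 to 35.8 and 27.9 to 38.9 CPM. Adipocyte markers (3 of 6 tested, ADIPOQ at 0 throughout) summed to 1.92 to 8.58 and 1.34 to 4.30 CPM. Skeletal muscle markers (7 of 10 tested, all with log2 fold changes above 0, 0 past the threshold in edgeR, 6 at an unadjusted p under 0.05, 0 in DESeq2) summed to 3.12 to 21.8 CPM under vehicle and 4.22 to 492 under evexomostat, highest in evexomostat replicate 005. The host was a mouse, while the counts were made on human builds and the handling of mouse reads is not given. These sums therefore cannot measure host cells, and the part of host cells in the differences above was not tested.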

How the data were processed

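RNA was sequenced from 11 xenograft tumours, grouped by the titles of the samples. Columns were matched to samples by the code in each sample's description. Per the submitters' processing notes, which give names without roles, bcl2fastq 2.17, STAR 2.7.5c, featureCounts (Subread) and edgeR were used with builds GRCh37 and hg19. How strand and mouse reads were treated, and the annotation, are not given in the sources used here. Raw counts for each symbol were used as the authors deposited them. RPM values in the second deposited table are the same counts scaled to each column's total (largest difference 2.3e-13). From the authors' deposited table of their own comparison, log2 fold changes were set beside the values here in the closing section; the p-values and the SDs of the signal that the authors computed for that deposited table were not used.

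Genes were kept with filterByExpr (minimum count 10, minimum total 15), given TMM factors and tested by quasi-likelihood without covariates in edgeR 4.0.16 (R 4.3.3), with Benjamini-Hochberg adjustment over 16653 genes. SEs were derived from the F statistics. Log2 CPM used a prior count of 2. Correlations used all 86400 permutations within groups, two-sided, with adjustment over 10 relations. Count tests were tested on simulated data and the permutation test on values with a known answer. No 2 libraries were duplicates (chi-square per degree of freedom 16.6 or more). Alternatives were relative log expression factors, no filter, DESeq2 1.42.0, limma-voom with quality weights (limma 3.58.1), a replicate block, log2(RPM + 1), the RPM scale for levels and leaving out each library; the length of all exons was added after seeing the data. Both groups hold replicates 003, 004, 005 and 007, which the labels do not pair. Nothing states how the animals were allotted. The p-values of the count tests set the difference between groups against the spread between these tumours. Those of the correlations come from permutation within groups.

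All 10 members are named. In each pathway list the genes past the threshold are described, or the 4 with the largest change where there are more, or the 2 most abundant where there are none. Outside this rule, CASP8 was described beside CFLAR, and TNF, LTB and LTA were given with their counts. CYLD and TANK were named after their values were seen. The members and lists were chosen with earlier results of these data known.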

Additional observations from a re-analysis of the deposited data

Results flagged for a closer look

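TNFAIP6 was at 373 CPM in vehicle replicate 007, against 126 in the next highest vehicle tumour. The gap divided by the group's whole range is 0.74, above the critical value of Dixon's test for 6 samples. It was the only one of 20 groups checked over the 10 genes to stand out, where about 1 would by chance. The same tumour was also the highest in CFLAR.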

How the results depend on the processing

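The count of 101 genes past the threshold (29 higher, 72 lower) was 649 with DESeq2 (200 higher, 449 lower), 1059 with quality weights (384 and 675) and 733 on the 8 tumours with shared replicate numbers and no replicate block (225 and 508). The 6 pathway genes became 17, 24 and 12 in the same order. With the replicate block on those 8 tumours there were 107 genes, 5 pathway genes and 0 of the 10 members, with 3330 genes at an unadjusted p under 0.05. Same-numbered tumours correlated at -0.27, 0.07, 0.05 and -0.10 in their deviations from the group means. So few values cannot exclude a link between same-numbered tumours, and the labels state none. Leaving out each library gave 1 to 865 genes (1 to 328 higher, 0 to 537 lower; at 0, edgeR left 1833 genes with an unadjusted p under 0.05) and 0 to 19 pathway genes. Relative log expression factors (97 genes) and no filter (106) stayed within 1.5 times. The cause of these shifts was not tested. Of the 10 members, 8 kept the sign of their log2 fold change in all 17 alternatives, and TRAF1 and TRAF2 in 16. In the authors' deposited table the log2 fold changes had the same signs, from -2.54 for TNFAIP6 to 0.19 for TRAF2, with -0.81 for TNFAIP8 and -0.66 for BIRC3. The count of 0 relations of TNFAIP8 past the threshold held in all 12 alternatives. Their signs changed for TRAF1 (r from -0.03 to 0.29 on log2(RPM + 1), -0.23 to 0.22), CFLAR (-0.0088 to 0.44), TNFAIP2 (-0.048 to 0.29) and BIRC3 (-0.21 to 0.37) when 1 library was left out. On the RPM scale 8 of 10 members kept their rank in treated tumours, where BIRC2 and BIRC3 changed places. In vehicle tumours 10 of 10 did, but TNFRSF1A and TNFAIP2 were no longer apart. With all exons as length 3 members kept their rank in treated tumours and 2 in vehicle tumours.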
